A study of Mus musculus with 6 samples.

Results

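The untreated Tri-PyMT samples were compared by replicate number, replicate 2 against replicate 1, separately in RFP+ and in GFP+ cells, across named protein-coding genes. Tri-PyMT cells are a mouse mammary tumour line with a colour switch for epithelial-mesenchymal transition (EMT). RFP+ cells are labelled non-EMT and GFP+ cells EMT, and both were sorted by flow cytometry from cultures in medium with 10% serum. The table holds 30743 features, of which 20274 matched a named protein-coding gene and 11057 had an FPKM (fragments scaled to transcript length and sequencing depth) of at least 1 in at least 2 of the 4 untreated samples. These 11057 genes are called the genes tested, although no test was run between the replicates: there was 1 sample of each colour at each number. A gene was counted where log2(scaled FPKM + 1) differed by at least 1 in the same direction in both colours, after median-ratio scaling of the 4 samples. The counted genes were thus selected on the values of this comparison, which are given as a description.

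The series has 6 samples in 3 groups of 2, namely RFP+ untreated, GFP+ untreated and GFP+ cells kept with 4 µM 4-hydroperoxy-cyclophosphamide (CTX), a DNA-alkylating drug, for 7 days. Every group was the same cell line, and each library was built from 16 to 33 ng of total RNA with a TruSeq kit. The labels do not say whether the replicates came from separate cultures, days or sorts, nor whether samples of the same number share one, so culture, sort and library cannot be told apart here. A p-value in this text therefore measures only the spread between samples, which may be technical. The sources used here hold no read totals. From the steps between low FPKM values, depth relative to RFP+ replicate 1 was 1.0 in RFP+ replicate 2, 0.794 in GFP+ replicate 1 and 1.03 in GFP+ replicate 2. GFP+ replicate 1 also had the lowest size factor, -0.34 on the log2 scale, against 0.05 to 0.19 in the other 3. The scaling adjusts for its lower deposited values. E-cadherin (Cdh1), which marks epithelial cells, was at 62.0 and 79.5 FPKM in RFP+ replicates 1 and 2 and at 10.5 and 17.7 in GFP+ replicates 1 and 2, so both replicate pairs matched the labelled colour.

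Replicate 2 stood above replicate 1 in both colours for 125 of 11057 genes (1.13%) and below it for 39 (0.353%), and 0 genes differed by at least 1 in opposite directions. Interferon-stimulated genes, immediate early genes, several p53 targets and YAP targets were among the higher genes. Genes of the sterol and fatty acid synthesis list made up 51.3% of the lower genes. Within RFP+ cells alone 167 genes were higher (1.51%) and 45 lower (0.407%), and within GFP+ cells alone 216 (1.95%) and 109 (0.986%). In these pooled cells a change in RNA per cell cannot be told apart from a change in how many cells express a gene. Of the genes counted in RFP+ cells 77.4% were counted in both colours, and of those counted in GFP+ cells 50.5%.

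Interferons are secreted proteins that signal through cell-surface receptors to a complex of STAT proteins and IRF9, which switches on antiviral genes through a promoter element named the interferon-stimulated response element. Cholesterol and fatty acid enzymes are switched on together by SREBP transcription factors when membrane sterol is low, and switched off when sterol is plentiful. Immediate early genes, such as Fos and Egr1, are transcribed within minutes of a growth factor or stress signal and need no new protein synthesis. The p53 targets respond to DNA damage and other stress, and many arrest the cell cycle.

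The promoters of 3 interferon-stimulated genes and of Hmgcs1 are shown because they hold the element named for their group. Ifit3 and Hmgcs1 also had the largest differences among the genes tested of their lists, ranked by the colour that differed less. Each is 300 bases from 250 before to 50 after the start of the gene, on the strand of the gene, from RefSeq with the GRCm38.p6 build. Capitals in Ifit3 (chr19:34583279-34583578, plus strand), Isg15 (chr4:156200769-156201068, minus strand) and Gbp3 (chr3:142559794-142560093, plus strand) mark matches to an ISRE-like motif, GAAA followed by NN (any bases) and GAAA, searched on both strands. Capitals in Hmgcs1 (chr13:119690101-119690400, plus strand) mark a match to TCACNCCAC, a sterol response-like motif that was added after the values were seen.
Ifit3: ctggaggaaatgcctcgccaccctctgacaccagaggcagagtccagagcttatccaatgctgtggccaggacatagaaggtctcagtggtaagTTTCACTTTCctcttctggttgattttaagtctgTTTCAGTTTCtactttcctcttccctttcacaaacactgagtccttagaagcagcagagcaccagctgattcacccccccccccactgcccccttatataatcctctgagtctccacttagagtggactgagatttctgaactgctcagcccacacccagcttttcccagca
Isg15: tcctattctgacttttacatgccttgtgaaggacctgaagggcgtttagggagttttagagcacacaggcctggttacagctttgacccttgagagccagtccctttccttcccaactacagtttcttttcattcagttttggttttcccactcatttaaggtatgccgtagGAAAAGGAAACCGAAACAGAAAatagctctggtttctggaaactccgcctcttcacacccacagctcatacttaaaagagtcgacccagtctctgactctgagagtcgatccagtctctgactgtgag
Gbp3: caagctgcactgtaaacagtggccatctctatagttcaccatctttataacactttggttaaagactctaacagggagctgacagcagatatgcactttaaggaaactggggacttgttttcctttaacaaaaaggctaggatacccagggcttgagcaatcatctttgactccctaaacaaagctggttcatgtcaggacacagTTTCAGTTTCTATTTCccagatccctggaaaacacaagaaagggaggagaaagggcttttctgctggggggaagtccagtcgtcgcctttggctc
Hmgcs1: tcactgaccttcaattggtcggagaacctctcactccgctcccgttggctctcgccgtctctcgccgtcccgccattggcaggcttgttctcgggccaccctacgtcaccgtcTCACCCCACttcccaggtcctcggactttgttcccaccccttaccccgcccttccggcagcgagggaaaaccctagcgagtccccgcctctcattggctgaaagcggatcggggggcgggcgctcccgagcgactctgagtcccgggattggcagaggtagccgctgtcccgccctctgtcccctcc
In Ifit3 the matches begin 156 and 122 bases before the start site. In Isg15 there are 3 overlapping matches, beginning 78, 72 and 66 bases before it, and in Gbp3 there are 2 overlapping ones, beginning 45 and 39 bases before it. RefSeq gives Gbp3 a further start site, whose window (chr3:142560106-142560405) holds 0 matches. The match in Hmgcs1 begins 137 bases before it.

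Over all promoters in RefSeq of the genes tested, 2.93% of 11428 held the ISRE-like motif. Among genes higher in replicate 2, promoters were found for 90 of 125 genes, and 27.7% of their 119 promoters held it. Among lower genes 0 of 33 promoters did, from 27 of 39 genes. Within the interferon lists, 50% of the 34 promoters of counted genes and 32.2% of the 59 promoters of genes not counted held the motif. The AP-1 motif TGANTCA was in 20.2% of promoters of higher genes, 0 of 27 promoters of the AP-1 and immediate early list and 5.15% of all. The NRF2 motif TGACNNNGC was more frequent in both directions, at 26.9% of promoters of higher genes and 27.3% of lower genes against 14.4% of all. The CCAAT box, CCAAT, was in 71.4% of 28 promoters of the sterol and fatty acid list and 38.2% of all, and the sterol response-like motif was in 1 of those 28 (3.57%), in 2 of 33 promoters of lower genes (6.06%) and in 1.10% of all. The CArG box is bound by serum response factor and was also added after the values were seen. It was in 22.2% of 27 promoters of the immediate early list and 1.33% of all. Some genes have several promoters, and counted by gene it was in 3 of 21 (14.3%), against 1.61% of all. These shares describe letters in a window and were not tested.

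**Figure D1:**
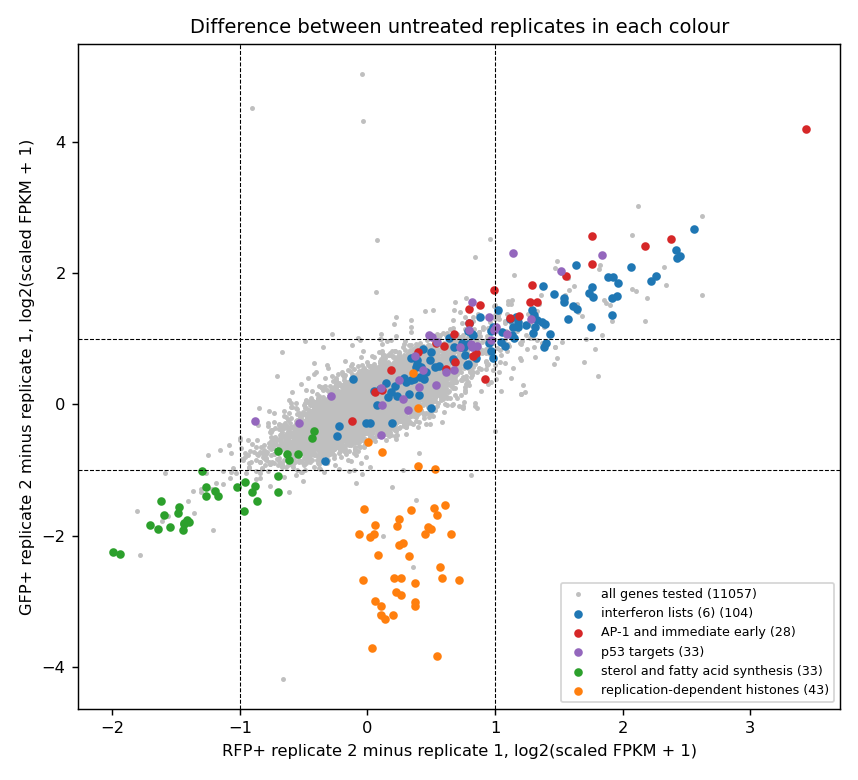
Each point is 1 of 11057 genes, with the difference between untreated replicates 2 and 1 in RFP+ cells (x) and in GFP+ cells (y), in log2(scaled FPKM + 1). Dashed lines mark differences of 1, and colours mark gene lists. Interferon, immediate early and p53 genes lie toward the upper right and sterol genes toward the lower left, while histone genes are low in y only.

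The differences in the 2 colours followed each other across genes, with Pearson's r of 0.737 and Spearman's rho of 0.754 over 11057 genes. Without the counted genes r was 0.663 (10893 genes), and among 5046 genes with at least 10 FPKM in all 4 samples it was 0.827. Genes are not independent replicates, and all values come from the same 4 libraries and 1 scaling. The robust SD of the difference over genes was 0.276 in RFP+ and 0.340 in GFP+ cells. The CTX-treated pair, which entered no choice of genes, had a robust SD of 0.0695. Within it 7 of the 11057 genes tested differed by at least 1, with 0 of the 164 counted genes among them (their largest difference was 0.471). The labels do not say whether the CTX-treated samples are separate cultures or parts of the same material, and their closeness enters the shared spread of the limma fit below. In 123 of the 125 higher genes both replicate 2 samples lay above both replicate 1 samples, whatever the colour, and in 39 of the 39 lower genes both lay below. For all genes tested the shares were 26.8% and 26.0%. The counted genes were chosen for a difference of at least 1 in each colour, which favours this separation. It therefore adds no support, here or for the single genes below.

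At the limit of 1 log2 unit the members just inside were Gadd45g, Tnfaip3 and Polk, with smaller differences of 1.0, 1.0 and 1.01 in the colour that differed less. Just outside were 1700007K13Rik, Itga2 and Sfrs8, at 0.997, 0.998 and 0.998. Among lower genes Stard4, Scrg1 and Sc5d were inside at -1.01, -1.02 and -1.02, and Fads1 and Mid1ip1 outside at -0.96 and -0.96. Of the counted genes 16 higher and 1 lower were under 1 FPKM in at least 1 of the 4 samples, where the pseudocount of 1 shrinks a difference. Counted genes beside another counted gene in the annotation numbered 23 of 125 (18.4%) among the higher and 4 of 39 (10.3%) among the lower. No such share was computed for other genes, so whether counted genes sit together was not tested.

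Interferon genes were the largest group. Over 6 lists, from sensors to antigen presentation, 43 of 104 genes tested were higher in replicate 2 and 0 lower, or 41.3% and 34.4% of all higher genes. Their medians were 0.92 in RFP+ and 0.95 in GFP+ cells, against 0.01 and 0.00 over all genes tested. Among 6 ligand and receptor genes tested 0 were counted, where 1.13% of all genes tested were higher. The medians of these 6 were 0.15 and -0.07 (0.31 in GFP+ cells as deposited). Interferon beta (Ifnb1), too low to be tested, was at 0.0584 and 0.291 FPKM in RFP+ replicates 1 and 2, at 0 and 0.0565 in GFP+ replicates 1 and 2, and at 3.77 and 4.96 in the CTX-treated samples. The receptor chains Ifnar1 and Ifnar2 differed by -0.14 and 0.14 in RFP+ and by -0.27 and -0.25 in GFP+ cells.

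Of 15 sensors of RNA and DNA 5 were higher, with list medians of 0.78 and 0.93. Zbp1, which senses left-handed nucleic acid, was at 17.0 and 51.4 FPKM in RFP+ replicates 1 and 2 and at 17.1 and 64.9 in GFP+ replicates 1 and 2 (log2 differences 1.61 and 1.5). The cytosolic RNA sensors Ddx58 (RIG-I), Ifih1 (MDA5) and Dhx58 differed by 1.33, 1.14 and 1.54 in RFP+ and by 1.29, 1.18 and 1.62 in GFP+ cells. Replicate 2 was the higher sample for all 4 of these sensors in both colours.

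Of 14 genes of interferon signalling 4 were higher, among them Irf7, Irf9 and Stat2. The list medians were lower, at 0.36 and 0.49. Irf7, an interferon-induced transcription factor that amplifies the response, was at 15.4 and 59.5 FPKM in RFP+ and at 15 and 64.2 in GFP+ replicates 1 and 2 (differences 1.95 and 1.66), so both replicate 2 samples exceeded both replicate 1 samples. Stat2 and Irf9, subunits of the interferon-activated complex, differed by 1.03 and 1.06 in RFP+ and by 1.44 and 1.10 in GFP+ cells. Irf1, a further transcription factor of the response, and the feedback inhibitor Socs3 were not counted, with differences of 0.34 and 0.80 in RFP+ and of 0.72 and 1.24 in GFP+ cells.

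Among antiviral effectors 19 of 37 were higher, with medians of 1.17 and 1.06. Ifit3, which helps block translation of viral RNA and whose promoter is shown above, was at 5.71 and 37.1 FPKM in RFP+ replicates 1 and 2, at 6.77 and 62.1 in GFP+ replicates 1 and 2 and at 253 and 252 in the CTX-treated samples. Its differences of 2.56 and 2.67 were the largest of the 37 genes tested, and replicate 1 did not overlap with replicate 2. The FPKM of Ifit1 was 9.22 and 44.7 in RFP+ and 10.3 and 52.2 in GFP+ replicates 1 and 2. Ifit2, of the same gene family, was level at 11.6 and 11.4 in RFP+ and at 7.75 and 11.8 in GFP+ cells (differences 0.05 and 0.20). Oas2, which makes the 2-5A messenger that activates RNase L, was at 1.66 and 13.3 and at 2.01 and 16.7 (2.45 and 2.27). Ifi44, an interferon-induced gene, differed by 2.42 and 2.35, and Oasl2 by 2.27 and 1.96. Rsad2 (viperin), which makes a chain-terminating nucleotide, was at 1.37 and 6.94 and at 0.828 and 6.30 (1.76 and 1.79). The abundant membrane restriction factors Ifitm2 and Ifitm3 did not differ in this way, with -0.33 and 0.19 in RFP+ and -0.86 and -0.29 in GFP+ cells. Mx1 and Mx2, GTPases that trap viral particles, were outside the genes tested, and Mx2 was at 1.51 and 12.7 FPKM in RFP+ and at 1.46 and 19.5 in GFP+ replicates 1 and 2. Values of the near-identical pairs Oas1a and Oas1g, Gbp6 and Gbp10, and Apol9a and Apol9b are uncertain, since the counting could split their reads.

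ISG15 is a ubiquitin-like protein that is attached to other proteins, and 4 of the 5 genes of this system were higher (medians 1.38 and 1.22). The modifier Isg15 itself was at 85.3 and 213 FPKM in RFP+ and at 86.0 and 264 in GFP+ replicates 1 and 2. Its activating enzyme Uba7 differed by 1.38 and 1.8, its ligase Herc6 by 1.24 and 1.21, and the protease Usp18, which removes ISG15 and restrains the receptor, by 2.43 and 2.24. Usp18 was at 4.70 and 28.7 and at 4.99 and 34.6 FPKM.

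Interferon-inducible GTPases attack the membranes that enclose intracellular pathogens, and 10 of 14 were higher, with medians of 1.45 and 1.38. The guanylate-binding protein Gbp3 was at 9.68 and 38.8 FPKM in RFP+ and at 10.3 and 51.2 in GFP+ replicates 1 and 2, with both replicate 2 samples above both others. The giant GTPase Gvin1 differed by 1.93 and 1.94, and the guanylate-binding protein Gbp9 by 1.46 and 1.68. The Gbp family member with the least difference that is named here, Gbp2, was at 0.85 and 0.71. Genes of class I antigen presentation lay lower: 1 of 19 was counted, the peptide transporter Tap1 (1.15 and 1.01), with medians of 0.50 and 0.62. The class I heavy chain H2-K1 was at 287 and 431 FPKM in RFP+ and at 221 and 469 in GFP+ replicates 1 and 2 (0.67 and 0.70), and H2-D1 differed by 0.83 and 1.06. The light chain B2m differed by 0.78 and 0.60. Class I heavy chain genes resemble each other and reads may be split among them.

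Of 21 immune cell markers, 17 were under 1 FPKM in all 6 samples and 7 were at 0 throughout, among them Emr1, Cd3e, Ms4a1, Nkg7, Ncr1 and Tyrobp. Their summed FPKM was 211 in both RFP+ samples, 118 and 130 in the GFP+ replicates 1 and 2, and came mostly from Cd14. Their part in the interferon difference was not tested. The pan-leukocyte gene Ptprc was at 0 in RFP+ replicates 1 and 2 and in GFP+ replicate 1.

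**Figure D2:**
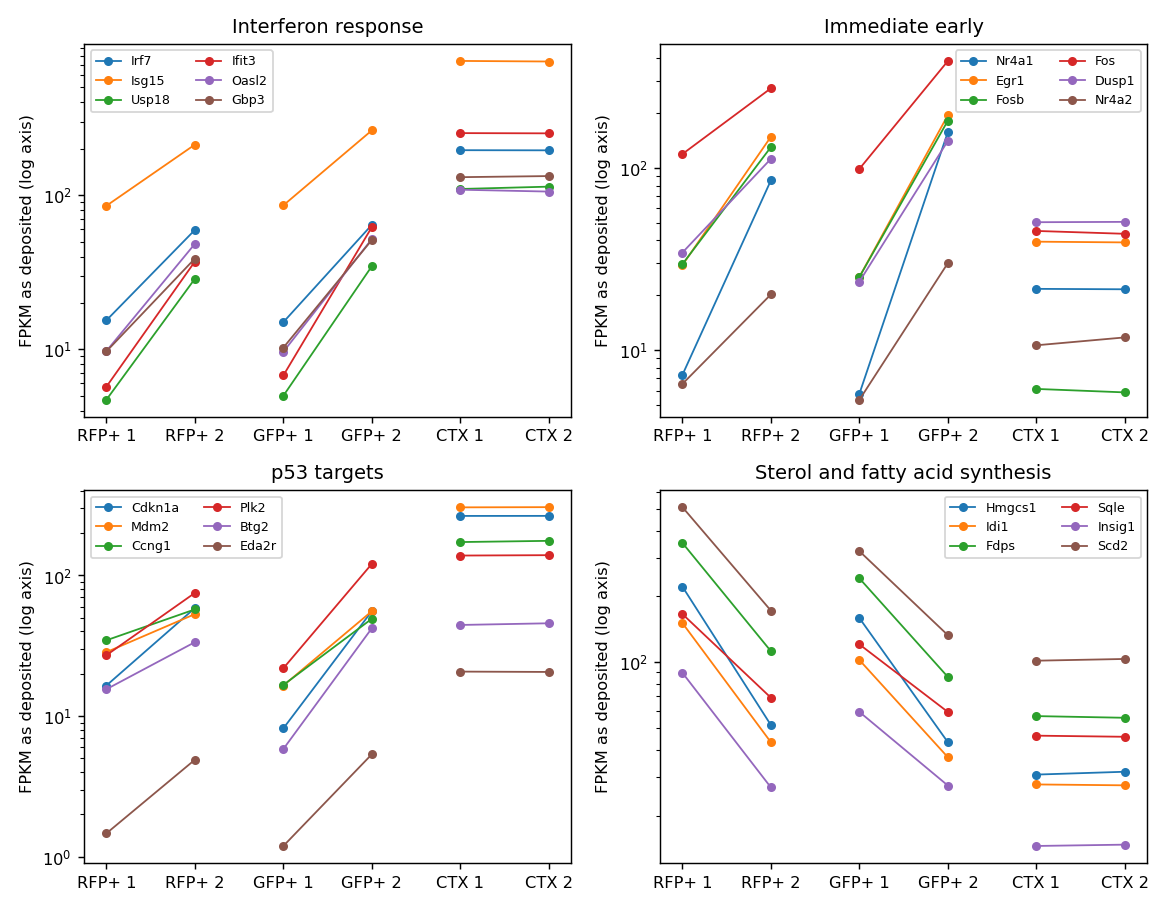
FPKM as deposited (log axis) of 6 interferon, 6 immediate early, 6 p53 and 6 sterol and fatty acid genes in the 6 samples, with lines joining the replicates of a group. Replicate 2 is above replicate 1 in the first 3 panels and below it in the last, in both colours, and the CTX pair is level.

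Chemokines and cytokines were higher in 6 of 24 genes (medians 0.61 and 0.63) and lower in 0. Of all genes tested 1.13% were higher and 0.353% lower. Cxcl10, an interferon-induced chemokine that draws T cells, was at 4.73 and 24.2 FPKM in RFP+ and at 4.55 and 20.4 in GFP+ replicates 1 and 2. The leukaemia inhibitory factor Lif, a cytokine of the IL-6 family, was at 31.3 and 128 and at 12.5 and 103 (2.07 and 2.58). The monocyte chemokine Ccl2 differed by 1.55 and 1.67. Csf3, the granulocyte growth factor, was at 20.7 and 63.4 in RFP+ and at 4.09 and 17.4 in GFP+ cells, so GFP+ replicate 2 lay under RFP+ replicate 1 while each pair differed by 1.64 and 1.53. The other 2 were Ccl7 and Ccl20. The very abundant neutrophil chemokine Cxcl5 differed by 0.24 and 0.22, and Ccl5 by 1.03 and 0.50, which did not count. Of 17 NF-kB response genes 1 was higher, the feedback inhibitor Tnfaip3, with list medians of 0.42 and 0.39.

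An immediate early gene, Nr4a1, held the largest difference shared by both colours. Of 28 tested 11 were higher and 0 lower, beside 1.13% and 0.353% of all genes tested. The medians were 0.87 in RFP+ and 1.29 in GFP+ cells. By any size 27 of 28 were higher in both colours (39.9% of all genes tested were). Nr4a1, an orphan nuclear receptor, was at 7.32 and 85.4 FPKM in RFP+ replicates 1 and 2, at 5.77 and 158 in GFP+ replicates 1 and 2 and at 21.7 and 21.6 in the CTX-treated samples. Its differences were 3.44 and 4.21. Egr1, a zinc finger transcription factor, was at 29.3 and 148 and at 25.2 and 195 (2.38 and 2.52), with both replicate 2 samples above both replicate 1 samples. The AP-1 subunit Fosb was at 29.6 and 130 and at 25.2 and 182, and Fos at 119 and 273 and at 98.8 and 386. In the CTX-treated samples Fosb was at 6.13 and 5.86, under all 4 untreated samples. Egr3 went from 0.203 to 3.22 FPKM between RFP+ replicates 1 and 2 and from 0.309 to 7.47 between the GFP+ ones. The phosphatase Dusp1, which switches off MAP kinases, differed by 1.76 and 2.14. The AP-1 subunit Junb, abundant in all 4 samples, differed by 0.54 and 0.94.

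Hes1, a transcriptional repressor of the Notch pathway in none of the lists, was at 11 and 69.7 FPKM in RFP+ and at 9.51 and 97.5 in GFP+ replicates 1 and 2 (2.62 and 2.87). Both replicate 2 samples lay above both replicate 1 samples. The Notch ligand Jag1, chosen after its values were seen, was also counted (1.38 and 1.19). Targets of YAP and TAZ, the coactivators of the Hippo pathway, had medians of 0.44 and 0.38. Of 19 tested 3 were higher, beside 1.13% of all genes tested. These were Ctgf at 12.3 and 77.5 and at 7.65 and 34.1 FPKM, the matricellular protein Cyr61 at 109 and 307 and at 90.8 and 454, and Ankrd1 (1.68 and 1.35). Amotl2, an inhibitor of YAP, differed by 0.93 and 0.84 and was not counted.

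Of 33 targets of p53 6 were higher and 0 lower, beside 1.13% and 0.353% of all genes tested. The list medians were 0.62 and 0.88. The cell cycle inhibitor Cdkn1a was at 16.5 and 58.7 FPKM in RFP+ replicates 1 and 2, at 8.19 and 55.9 in GFP+ replicates 1 and 2 and at 265 in both CTX-treated samples. Plk2, a kinase of the centrosome cycle, was at 27.1 and 75.2 and at 21.9 and 121 (1.52 and 2.04), and Btg2, an antiproliferative gene also induced early by growth factors, at 15.5 and 33.6 and at 5.84 and 42.2 (1.14 and 2.32). Eda2r differed by 1.28 and 1.30. Mdm2, the ligase that degrades p53, was at 28.5 and 53.1 and at 16.5 and 55.8 (0.95 and 1.33), just under the limit in RFP+ cells. Ccng1 differed by 0.79 and 1.14. The gene of p53 itself, Trp53, differed by 0.11 and -0.46.

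Secreted growth factors, matrix genes and proteases supplied further higher genes. Of all genes tested 1.13% were higher. The EGF receptor ligand Areg was at 19.9 and 58.3 FPKM in RFP+ and at 10.6 and 49.0 in GFP+ replicates 1 and 2 (1.58 and 1.75), and Hbegf, another such ligand, differed by 1.33 and 1.43. They were the 2 counted of 22 growth factors (medians 0.38 and 0.40). Matrix proteases and their inhibitors were higher in 3 of 20 genes, namely Mmp3, Mmp13 and Serpine2. Stromelysin Mmp3 was at 1.35 and 9.16 FPKM in RFP+ and at 4.56 and 56.3 in GFP+ cells, so GFP+ replicate 2 stood highest. Among 27 collagen and matrix genes 3 were higher, namely Col18a1, the source of endostatin (2.33 and 2.10), Thbs1 (1.32 and 1.29) and Col5a3 (1.13 and 1.59). Angptl4, an inhibitor of lipoprotein lipase in none of the lists, was at 8.54 and 43.2 and at 9.80 and 52.9 FPKM. The vasoconstrictor Edn1 differed by 1.86 and 1.59, and the prostaglandin synthase Ptgs2 by 1.52 and 2.0. Angptl4, Edn1 and Ptgs2 were chosen after their values were seen.

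Sterol and fatty acid synthesis was the main lower group. Of 33 genes tested 20 were lower in replicate 2 and 0 higher (60.6%, beside 0.353% of all genes tested), with medians of -1.27 in RFP+ and -1.40 in GFP+ cells. All 33 were lower in both colours by any size, against 38.5% of all genes tested. Hmgcs1, the synthase that makes HMG-CoA, was at 222 and 51.8 FPKM in RFP+ replicates 1 and 2, at 159 and 43.2 in GFP+ replicates 1 and 2 and at 30.8 and 31.7 in the CTX-treated samples. Both replicate 2 samples were below both replicate 1 samples (-1.99 and -2.24).

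The same held along the mevalonate and squalene steps. Mvd, which makes isopentenyl diphosphate, was at 47.7 and 10.9 FPKM in RFP+ and at 34.6 and 8.49 in GFP+ replicates 1 and 2, and Idi1, its isomerase, at 151 and 43.2 and at 103 and 36.9. Fdps, the farnesyl diphosphate synthase, was at 351 and 113 and at 242 and 85.8 (-1.55 and -1.87). Squalene epoxidase Sqle differed by -1.17 and -1.40, the cyclase Lss by -1.60 and -1.68, and the demethylation enzymes Cyp51 and Sc4mol by -1.42 and -1.64 in RFP+ and -1.77 and -1.91 in GFP+ cells. Sc5d, a desaturase near the end of the pathway, was nearer the limit at -1.02 and -1.26. Every enzyme in the plot of this pathway was lower in replicate 2 of its colour.

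**Figure D3:**
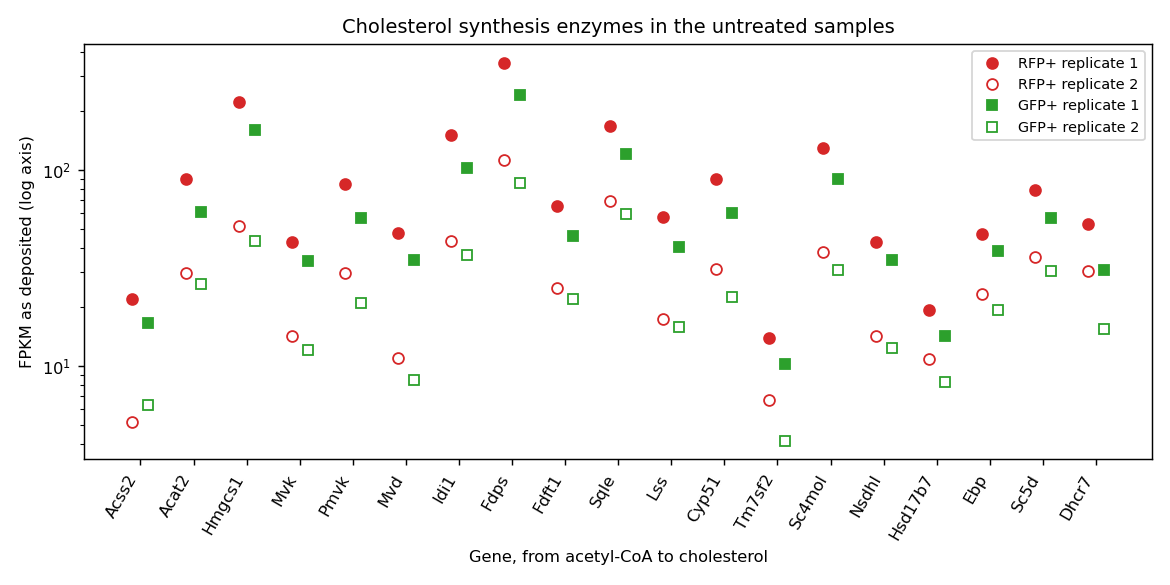
FPKM as deposited (log axis) of 19 enzymes on the way from acetyl-CoA to cholesterol in the 4 untreated samples. Filled symbols are replicate 1 and open symbols replicate 2, with circles for RFP+ and squares for GFP+ cells, and the open symbol is the lower one of its colour at each enzyme.

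The genes of the SREBP factors differed less than the enzymes named above. The gene of the main sterol-responsive factor, Srebf2, was at 112 and 71.9 FPKM in RFP+ and at 78.9 and 60.6 in GFP+ replicates 1 and 2 (-0.55 and -0.76), and Srebf1 differed by -0.42 and -0.41. Insig1, which holds SREBP in the endoplasmic reticulum and is itself a target, was lower by more (-1.62 and -1.47). In fatty acid synthesis the desaturase Scd2 was at 512 and 172 and at 322 and 133 (-1.48 and -1.66), while the synthase Fasn differed by -0.70 and -0.71 and the carboxylase Acaca by -0.43 and -0.51. The desaturase genes Scd1 to Scd4 resemble each other, and all 4 were counted lower.

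Of the 39 lower genes 17 were in none of the lists, and several of these also handle lipids or their precursors, which was seen after their values. Acss2, which makes acetyl-CoA from acetate, was at 21.9 and 5.14 FPKM in RFP+ and at 16.5 and 6.26 in GFP+ replicates 1 and 2. Aacs, which activates acetoacetate for lipid synthesis, differed by -1.22 and -1.29, the phosphatidate phosphatase Lpin1 by -1.41 and -1.48, the fatty acid binding protein Fabp5 by -1.08 and -1.13 and the NADPH-producing Idh1 by -1.27 and -1.05. The insulin-like growth factor binding protein Igfbp2 was at 11.7 and 2.46 and at 29.4 and 6.97 (-1.78 and -2.30), so GFP+ replicate 2 lay under RFP+ replicate 1 as well. Of 16 stratified and cornified epithelium genes 1 was lower and 0 higher, beside 0.353% and 1.13% of all genes tested. This was S100a8, a subunit of calprotectin. It was at 66.8 and 20 and at 43.4 and 15.8 FPKM and at 157 and 156 in the CTX-treated samples.

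Glycolysis and hypoxia genes had 1 of 31 counted, the aldolase Aldoc (-1.57 and -1.70), with medians of -0.30 and -0.33. Across all genes tested 1.13% were counted higher and 0.353% lower. Glyceraldehyde phosphate dehydrogenase Gapdh differed by -0.54 and -0.88, and the lactate dehydrogenase Ldha by -0.60 and -0.71. Ribosomal protein genes had 0 of 66 counted, with medians of -0.46 and -0.33. By any size 63 were lower in both colours, against 38.5% of all genes tested. Respiratory chain genes had 0 of 44 counted, with medians of -0.23 and -0.26. These small shifts depend on the scaling: in the FPKM as deposited the GFP+ medians were 0.03, 0.05 and 0.13 for glycolysis, ribosomal and respiratory genes, where the median over all genes was 0.34 in GFP+ and -0.06 in RFP+ cells.

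**Figure D4:**
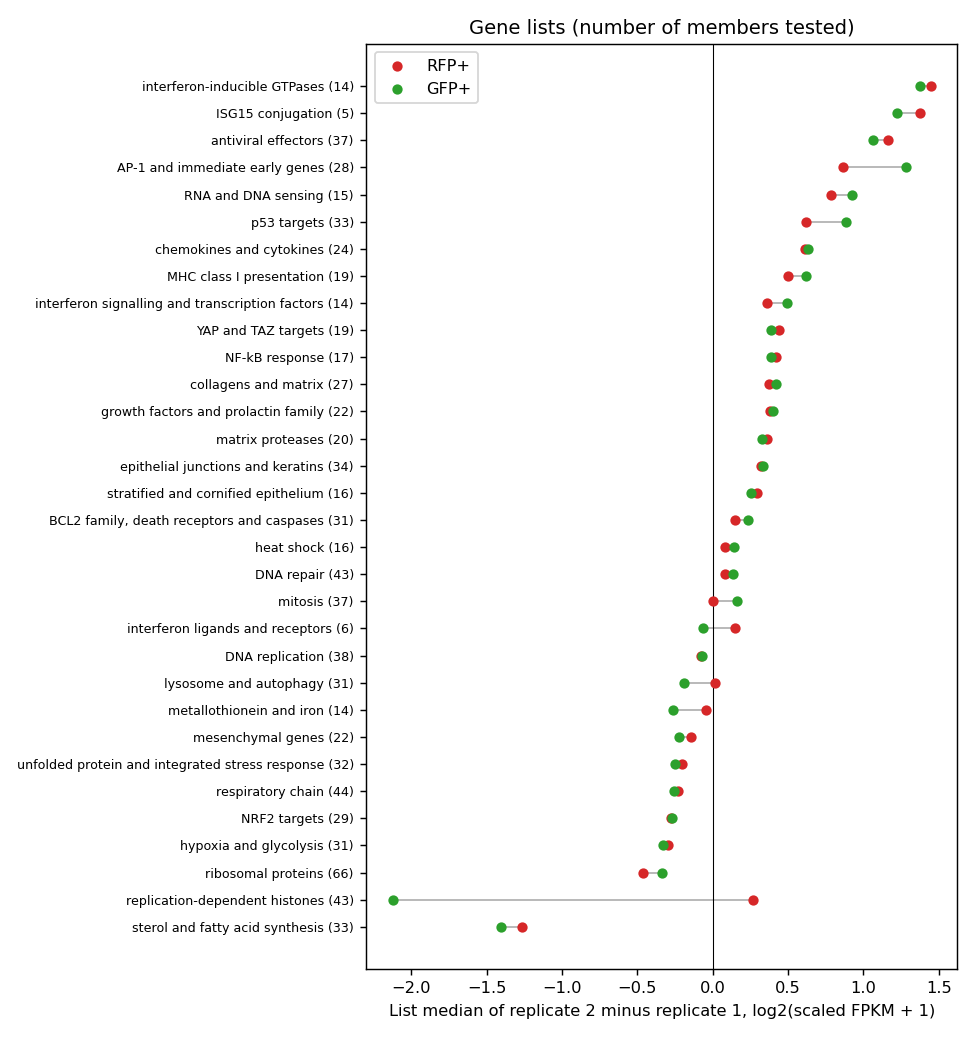
Median difference between untreated replicates 2 and 1 of each gene list in RFP+ (red) and GFP+ (green) cells, in log2(scaled FPKM + 1), with the number of members tested in brackets. The lists range from interferon-inducible GTPases at 1.45 and 1.38 to sterol and fatty acid synthesis at -1.27 and -1.40, and the histone list has its colours far apart.

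Few cell cycle or EMT genes were counted, as among all genes tested (1.13% higher and 0.353% lower). None of 37 mitosis or 38 replication genes was counted, and the proliferation marker Mki67 was at 51.4 and 47.9 FPKM in RFP+ and at 34.5 and 58.9 in GFP+ replicates 1 and 2 (-0.02 and 0.38). Vimentin (Vim), the mesenchymal intermediate filament, differed by -0.02 and -0.06, and S100a4 by -0.76 and -0.41. The adhesion molecule Epcam differed by 0.36 and 0.53. Of 34 epithelial junction and keratin genes 1 was higher, the cornified envelope protein Ppl (1.03 and 1.30), with list medians of 0.32 and 0.34. By any size 26 were higher in both colours, against 39.9% of all genes tested.

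The remaining lists held few counted genes, where 1.13% of all genes tested were higher and 0.353% lower. NRF2 switches on genes against oxidants, and of its 29 targets 1 was higher, the aldehyde dehydrogenase Aldh3a1, at 36.5 and 111 FPKM in RFP+ and at 38.2 and 135 in GFP+ replicates 1 and 2, although the list medians were -0.28 and -0.27. Of 32 genes of the unfolded protein and integrated stress response 1 was higher, Ppp1r15a, which restores translation after stress (1.36 and 1.67), with medians of -0.21 and -0.25. In the FPKM as deposited the GFP+ medians of these lists were 0.11 and 0.13. Lists of heat shock (16 tested), DNA repair (43), lysosome and autophagy (31), cell death (31), mesenchymal (22) and metallothionein and iron genes (14) had 0 counted in either direction. The summed FPKM of 18 luminal mammary markers was 790 and 1097 in RFP+ and 193 and 348 in GFP+ replicates 1 and 2, with 0 of 12 tested counted. The summed FPKM of 10 fibroblast markers was 30.2 and 38.2 in RFP+ and 72.9 and 119.9 in GFP+ replicates 1 and 2, with 0 of 5 counted, and 9 of 10 endothelial markers were under 1 FPKM in all 6 samples. Among the 10206 genes in none of the lists 44 were higher (0.431%) and 17 lower (0.167%).

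Replication-dependent histone genes were the exception to the shared direction. Their mRNAs mostly lack a poly(A) tail and are made in S phase. Of 43 tested, 40 were higher in RFP+ replicate 2 than in replicate 1 and 42 were lower in GFP+ replicate 2 than in replicate 1, with medians of 0.26 and -2.12. Their summed FPKM was 109 and 137 in RFP+ replicates 1 and 2, 576 and 163 in GFP+ replicates 1 and 2 and 335 and 321 in the CTX-treated samples. GFP+ replicate 1, the sample with the least relative depth, was the highest of the 4 untreated samples for 40 of the 43. Hist1h4c, a histone H4 gene, was at 1.86 and 1.69 and at 14.3 and 2.06 FPKM, whereas Hist1h1c, a linker histone gene, was at 22.5 and 27.6 and at 20.9 and 38.3. Histone genes within a class are near copies, so values of single genes are uncertain.

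**Figure D5:**
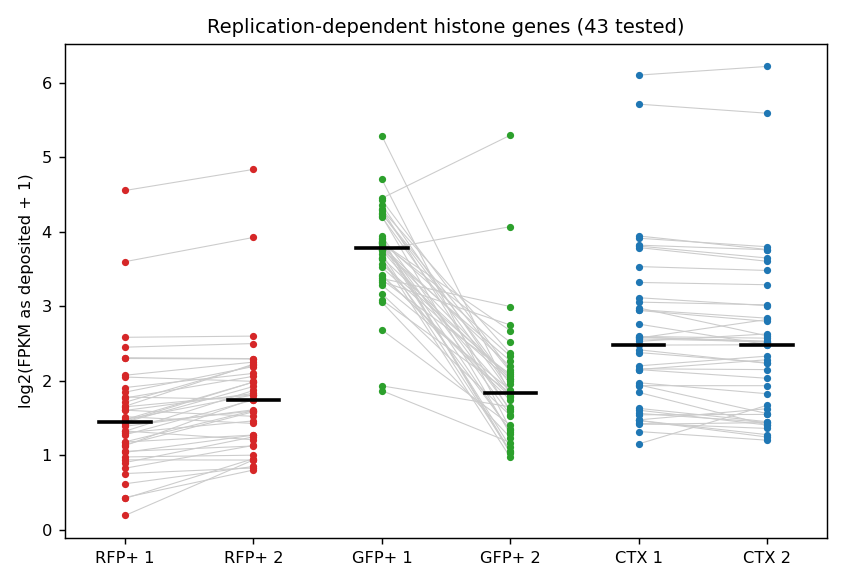
Replication-dependent histone genes in the 6 samples as log2(FPKM as deposited + 1), with 1 point per gene, lines joining replicates of a group and bars at the median of 43 genes. GFP+ replicate 1 stands above the other 3 untreated samples, and the median FPKM is 12.8 there against 1.72 to 2.57 in them.

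The colour and drug comparisons were not used to choose the counted genes, though they share these libraries. In limma with Benjamini-Hochberg adjustment over 12313 features, 128 were higher (1.04%) and 227 lower (1.84%) in untreated GFP+ than in RFP+ cells, or 2.88% in all, against 18 and 264 in the FPKM as deposited. Without RFP+ replicate 1 or 2 the counts were 1 and 2 or 0 and 1, without GFP+ replicate 1 or 2 they were 9 and 31 or 101 and 131, and without either CTX-treated sample 1 and 3. Of the 164 counted genes 0 passed, and 1 had an unadjusted limma p under 0.05, the chemokine Ccl20, beside 1943 of all 12313 features. Ccl20 was at 18.0 and 38.6 FPKM in RFP+ and at 2.67 and 10.2 in GFP+ replicates 1 and 2, with a log2 change of -1.85 (SE 0.56, limma adjusted p = 0.200). The choice of genes for a replicate difference fixes a wide spread: their median SE was 0.68 against 0.14 over all features. For Hmgcs1 the log2 change between the colours was -0.08 (limma adjusted p = 0.991), and for Mmp3 it was 2.10 (SE 1.17, limma adjusted p = 0.494).

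Between CTX-treated and untreated GFP+ cells 1134 features were higher (9.21%) and 654 lower (5.31%), 14.5% in all. As deposited these were 971 and 39, and after quantile normalization 1086 and 1300. They were 427 and 145 without GFP+ replicate 1, 0 and 1 without CTX replicate 1 and 2 and 3 without CTX replicate 2, and the lower count was 356 or 360 without RFP+ replicate 1 or 2 (limma). Of the 164 counted genes 7 passed, against 0 without GFP+ replicate 1 or without either CTX-treated sample, 1 without either RFP+ sample and 20 without GFP+ replicate 2. The 7 were Ccl7, Cd80, Csprs, Gbp4, Gm4902, Prrg4 and Rsad2, with log2 changes from 2.39 to 3.81. An unadjusted limma p under 0.05 was found for 57 of the 164, beside 4261 of all 12313 features. Cd80, a costimulatory ligand of T cells, was at 0.359 and 5.32 FPKM in GFP+ replicates 1 and 2 and at 41.8 and 45.5 in the CTX-treated samples. Several genes with both CTX-treated samples outside the untreated range did not pass. Cdkn1a had a log2 change of 3.31 (SE 0.93, limma adjusted p = 0.0740), Isg15 of 2.04 (SE 0.59, limma adjusted p = 0.0793), Ifit3 of 3.29 (SE 1.17, limma adjusted p = 0.121) and Fosb of -3.54 (SE 1.03, limma adjusted p = 0.0796). S100a8 had a log2 change of 2.28 (SE 0.76, limma adjusted p = 0.106). A culture time is labelled for the treated samples alone.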

How the data were processed

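Gene expression in 6 sorted Tri-PyMT samples was deposited by the authors as FPKM values, 1 column per sample. Per the submitters' processing notes CASAVA 1.8.2, FastQC, TopHat, Cufflinks and HTSeq were used with the mm9 build, with order and settings not given. FPKM are not counts, so no count model was run.

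Features were matched to RefSeq genes (GRCm38.p6) by symbol (20855) or synonym (2194), and 7694 did not match. The 4 untreated samples were scaled by median ratios (over genes at 1 FPKM or more in each of the 4) and compared as log2(scaled FPKM + 1), which understates differences of low genes. The colour and drug contrasts used limma 3.58.1 (R 4.3.3), fitted to all 6 samples with 3 group means, an intensity trend, the same filter over all features and scaling over the 6 samples. Its two-sided p-values were adjusted by Benjamini-Hochberg at a threshold of 0.05, and the fit was tested on simulated data. Levels are FPKM as deposited, and differences are on the scaled log2 scale. Relative depth came from the steps between FPKM values of low genes and carries no counting error. Figures used matplotlib 3.10.9 in Python 3.11.15.

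The genes compared, the 40 gene lists and the tests were chosen with earlier results of these data known. Genes were named by rule: the 12 largest each way with a mean of at least 10 FPKM (scaled) in the replicate 2 samples, up to 6 of each list with at least 3 members, and a panel. Other genes named were chosen after their values were seen. Alternatives covered scaling, pseudocount, filters, the size counted, a replicate covariate and leaving out samples. Features with symbols turned into dates (25) were not named.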

Additional observations from a re-analysis of the deposited data

Results flagged for a closer look

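Replication-dependent histone genes differed between the colours in the direction of the replicate difference. Their median of replicate 2 minus replicate 1 was 0.26 in RFP+ and -2.12 in GFP+ cells, a gap of 2.38 log2 units. There was 1 difference per colour, so this gap was not tested. GFP+ replicate 1, which had the highest histone values of the 4 untreated samples, also had the lowest relative depth, 0.794 of that of RFP+ replicate 1, and the part of depth in the gap was not tested.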

How the results depend on the processing

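Of 47 genes recomputed under other scalings and pseudocounts, as the mean of both colours, no counted gene changed direction. Counted genes were chosen for a difference of at least 1 in each colour, which largely fixes this outcome, so it adds no support. Of the recomputed differences 57 moved by more than the SD between the 2 colours and 178 did not. Small differences of genes not counted can change sign. As deposited, Vim rose from 952 to 1198 FPKM between GFP+ replicates 1 and 2, against a difference of -0.06 after scaling. Of 35 list medians, 10 in GFP+ and 2 in RFP+ cells changed sign in the FPKM as deposited, and 0 and 1 after quantile normalization. Those in GFP+ cells were glycolysis, ribosomal, respiratory, NRF2, unfolded protein, mesenchymal, lysosome, metallothionein, DNA replication and interferon ligand and receptor genes. For the replicate difference, 125 higher and 39 lower genes became 135 and 24 in the FPKM as deposited, of which 117 and 23 were shared with the scaled values. With a pseudocount of 0.1 there were 201 higher, and with one of 5 there were 60 and 25. At a difference of 0.5 there were 540 and 287, and at 1.5 there were 49 and 10. With 1 colour left out the counts ranged from 167 to 216 higher and from 45 to 109 lower. Between untreated GFP+ and RFP+ cells, 128 higher and 227 lower became 18 and 264 as deposited, 65 and 144 without a filter, and 1 and 3 with only the 4 samples of the 2 groups. Leaving out 1 sample at a time gave 0 to 101 higher and 1 to 131 lower features, with 0 and 1 without RFP+ replicate 2, 1 and 2 without RFP+ replicate 1, 9 and 31 without GFP+ replicate 1, and 1 and 3 without either CTX-treated sample (limma). Between CTX-treated and untreated GFP+ cells, 1134 higher and 654 lower became 971 and 39 as deposited, 1086 and 1300 after quantile normalization, 2285 higher without a filter and 352 lower with only these 2 groups. Leaving out 1 sample gave 0 to 1312 higher and 1 to 817 lower. The 7 counted genes that passed became 17 as deposited, 14 after quantile normalization, 0 with a pseudocount of 0.1, 1 without a filter, 1 with only these 2 groups and 0 to 20 with 1 sample left out. Counts of the drug comparison were recomputed as an addition made after seeing the data. The cause was not tested.

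Replicate numbers are shared by the groups, but the labels do not say what a number marks, and there are 2 untreated pairs, whose deviations correlated across genes (r = 0.737). With the replicate block 160 features were higher and 287 lower in GFP+ cells, 332 of them among the 355 called without it, and 1 counted gene passed, Ccl20 (limma adjusted p = 0.0462). With the replicate block and only the 4 untreated samples, chosen after seeing the data, these were 479 and 583, and 42 counted genes passed. In the drug comparison the block gave 1492 and 866, with 57 counted genes past the threshold, and Ifit3, Isg15, Cdkn1a, Fosb and S100a8 passed (limma adjusted p = 0.0388, 0.0285, 0.0258, 0.0278 and 0.0351). Cdkn1a also passed without GFP+ replicate 2 (limma adjusted p = 0.0404). The block takes out the replicate difference on which the counted genes were chosen. Their median SE was 0.68 without it, 0.42 with it and 0.10 with it in only the 4 untreated samples. Passing with the block therefore adds no support for these genes. It was also applied to the CTX-treated pair, in which 0 of the 164 counted genes differed by at least 1. Low genes are limited by the unknown depth and by the pseudocount.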
